A study of Mus musculus with 12 samples.

Results

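The interferon-stimulated genes described here are 37 mouse genes whose transcription is known to rise after interferon signaling. They were chosen by name, as a list of well-known targets of the pathway, with earlier results of these data known. Each symbol was found once among the 55487 genes of the count tables. All 37 were among the 19581 genes tested. Their RNA was measured in 12 libraries of the intestine of untreated C57BL/6 mice, in 4 groups of 3 libraries. SI tissue and LI tissue, labelled as in vivo tissue, are freshly isolated crypts of the small intestine (SI) and the large intestine (LI), with 1 mouse for each library of a group. Crypts are the gland-like pockets of the epithelium that hold its stem cells. SI monolayers and LI monolayers are crypts grown for 24 h as a flat culture in control media on a Matrigel-coated plate, with the wells of a library pooled. The mice were young adults, male or female, with no transgene named, and no drug treatment is named for any of the 4 groups. The paper took SI and LI crypts for culture from the same mice, but which libraries share a mouse is not given. SI crypts for culture came from the jejunum and were released with EDTA and passed through strainers, while LI crypts were released with collagenase, dispase and DNase before EDTA, so the region and the method of release cannot be told apart.

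Interferons are secreted proteins that warn cells of infection. Type I and type III interferons act through their receptors on the factor ISGF3, which holds STAT2 and IRF9 and binds the interferon-stimulated response element (ISRE) of its target genes. Type II interferon, the product of Ifng, acts mainly at the gamma-activated site (GAS) and through IRF1, which it induces. In the intestine, epithelial cells respond strongly to type III interferon, and intraepithelial lymphocytes are a known source of type II interferon. The targets encode sensors of foreign nucleic acid, proteins that block viruses, the ubiquitin-like ISG15 and the machinery that presents peptides to T cells.

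The promoters of 6 members are shown here as examples, chosen with the results below known. Isg15 is the classical ISRE gene, Ifit1, Ifit2 and Ifit3 are neighbours in 1 gene cluster that differed in their changes, Gbp2 differed most between SI and LI tissue, and Oasl1 was the only member called higher in SI monolayers than in SI tissue. Each sequence is the RefSeq promoter on GRCm38.p6, 250 bases before to 50 after the start of the gene, written 5′ to 3′ on the gene's strand. Capitals mark matches on either strand to the ISRE core GAAANNGAAA or to the GAS TTCNNNGAA. The windows (for Ifit2 the first of 2 in RefSeq) are Isg15 at chr4:156200769-156201068, minus strand, Ifit1 at chr19:34640639-34640938, plus strand, Ifit2 at chr19:34550444-34550743, plus strand, Ifit3 at chr19:34583279-34583578, plus strand, Gbp2 at chr3:142620413-142620712, plus strand, and Oasl1 at chr5:114922990-114923289, plus strand.
Isg15: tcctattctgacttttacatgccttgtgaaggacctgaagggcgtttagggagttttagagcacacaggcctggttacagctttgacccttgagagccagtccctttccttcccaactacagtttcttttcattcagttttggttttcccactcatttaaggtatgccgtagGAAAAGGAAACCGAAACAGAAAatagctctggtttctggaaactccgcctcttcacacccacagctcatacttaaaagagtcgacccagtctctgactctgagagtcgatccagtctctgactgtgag
Ifit1: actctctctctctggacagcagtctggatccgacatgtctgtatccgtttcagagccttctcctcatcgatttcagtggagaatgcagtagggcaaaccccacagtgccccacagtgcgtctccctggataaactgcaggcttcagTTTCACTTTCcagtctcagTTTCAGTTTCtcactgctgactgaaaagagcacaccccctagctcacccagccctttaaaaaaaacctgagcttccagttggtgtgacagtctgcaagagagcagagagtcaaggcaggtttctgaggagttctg
Ifit2: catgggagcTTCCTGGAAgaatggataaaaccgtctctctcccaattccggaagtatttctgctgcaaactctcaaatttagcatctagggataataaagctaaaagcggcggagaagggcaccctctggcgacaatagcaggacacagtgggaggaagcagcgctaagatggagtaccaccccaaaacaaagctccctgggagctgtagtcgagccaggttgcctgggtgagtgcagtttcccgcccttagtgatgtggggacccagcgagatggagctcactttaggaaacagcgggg
Ifit3: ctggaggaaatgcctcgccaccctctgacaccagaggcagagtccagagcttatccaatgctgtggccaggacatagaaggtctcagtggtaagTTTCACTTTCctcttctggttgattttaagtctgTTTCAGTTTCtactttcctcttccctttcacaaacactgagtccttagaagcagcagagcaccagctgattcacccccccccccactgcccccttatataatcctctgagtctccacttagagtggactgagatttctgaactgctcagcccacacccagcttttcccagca
Gbp2: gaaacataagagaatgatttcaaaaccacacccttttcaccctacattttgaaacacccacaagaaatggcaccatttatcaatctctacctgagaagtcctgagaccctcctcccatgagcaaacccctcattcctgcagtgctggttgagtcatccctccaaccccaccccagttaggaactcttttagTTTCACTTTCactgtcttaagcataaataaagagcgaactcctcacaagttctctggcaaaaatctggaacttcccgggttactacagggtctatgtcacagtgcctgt
Oasl1: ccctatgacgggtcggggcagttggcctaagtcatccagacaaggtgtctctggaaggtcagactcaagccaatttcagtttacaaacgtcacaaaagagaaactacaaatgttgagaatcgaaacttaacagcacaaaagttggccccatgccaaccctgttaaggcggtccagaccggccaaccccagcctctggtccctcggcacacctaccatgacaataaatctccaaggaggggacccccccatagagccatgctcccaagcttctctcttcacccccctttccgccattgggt

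Counted from the start of the gene as 0, the 3 ISRE core matches of Isg15 overlap one another and begin at -78, -72 and -66. In Ifit1, the matches begin at -104 and -85. Those of Ifit3 begin at -156 and -122, and the single match of Gbp2 begins at -59. The Ifit2 window shown holds no ISRE core but a GAS match that begins at -241, and the Oasl1 window holds neither motif. RefSeq windows were found for 27 of the 37 members, and 13 of these 27 genes (48.1%) hold the ISRE core, against 3.99% of the 27025 genes with a window. The GAS was found in 7 of the 27 (25.9%), against 9.55% of all genes. Windows of Dhx58, Zbp1, Oas2, Mx1, Mx2, Rtp4, Ifi27, Usp18, Parp9 and Parp14 were not used here. A match of letters is a description and not a measured binding site, and its relation to the changes below was not tested.

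The libraries held 59016196 to 76216530 counts, so a floor of 3 counts corresponds to 0.0394 to 0.0508 CPM (counts scaled to a common library total) and covers counting error only. This floor takes counts as independent, and it would be higher if the mates of a read pair were counted separately. Epithelial markers were high in every group, and the region markers followed the labels. Gata4, a factor of the proximal gut, ranged from 8737 to 12942 normalized counts in the 6 SI libraries and from 87.5 to 226 in the 6 LI libraries. Other cell types were not absent. The 13 markers of T cells and intraepithelial lymphocytes summed to 537 to 754 CPM in SI tissue, 50.4 to 70.7 in LI tissue, 23.6 to 25.8 in SI monolayers and 2.68 to 5.74 in LI monolayers, and none of the 13 was at 0 throughout a group. All 13 were called lower in both cultures and higher in SI than in LI in both preparations. The 13 markers of macrophages, dendritic cells and granulocytes summed to 62.1 to 113 CPM in SI tissue and 69.8 to 74.5 in SI monolayers, while LI libraries had 121 to 141 when fresh and 129 to 130.0 in culture. Single markers did not follow these sums. Of the 11 tested, 7 were called lower and 2 higher in SI culture (median log2 fold change -2.23). In LI culture 7 were called lower and 1 higher (median -3.18). Between the tissues, 6 were called higher and 3 lower in SI than in LI (median 1.81). The 12 mesenchymal and endothelial markers summed to 10.7 to 28.6 CPM in SI tissue and 10.5 to 20.4 in SI monolayers, while LI libraries had 40.2 to 55.6 when fresh and 35.4 to 56.1 in culture. The 6 markers of B and plasma cells summed to 28.6 to 81.4 CPM in SI tissue and 10.5 to 49.7 in LI tissue, and to at most 1.49 in any monolayer library. Markers at 0 in a whole group were S100a8, of granulocytes, in both kinds of monolayers, and Mzb1, of plasma cells, and Cdh5, of endothelium, in SI monolayers. The part of these cell types in the results below was not tested. Nothing says that the 3 monolayer libraries of a group came from separate cultures, so p-values measure the spread between libraries, which may there be technical.

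LI tissue held the most interferon-stimulated RNA and SI monolayers the least. The 37 members took 0.291% to 0.358% of all counts in LI tissue, 0.146% to 0.205% in SI tissue, 0.121% to 0.171% in LI monolayers and 0.0731% to 0.0742% in SI monolayers. As a mean over the members of the log2 normalized count, centred on all 12 libraries, the levels were 1.60 ± 0.15 in LI tissue, 0.18 ± 0.29 in SI tissue, -0.23 ± 0.35 in LI monolayers and -1.56 ± 0.06 in SI monolayers (SD, n = 3 each). SI tissue and LI monolayers overlapped on this scale, while LI tissue lay above and SI monolayers below every library of the other groups. Normalized counts here are the authors' values, which divide the counts of a library by its size factor. In these bulk samples, fewer cells of a type and less RNA per cell cannot be told apart.

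**Figure D1:**
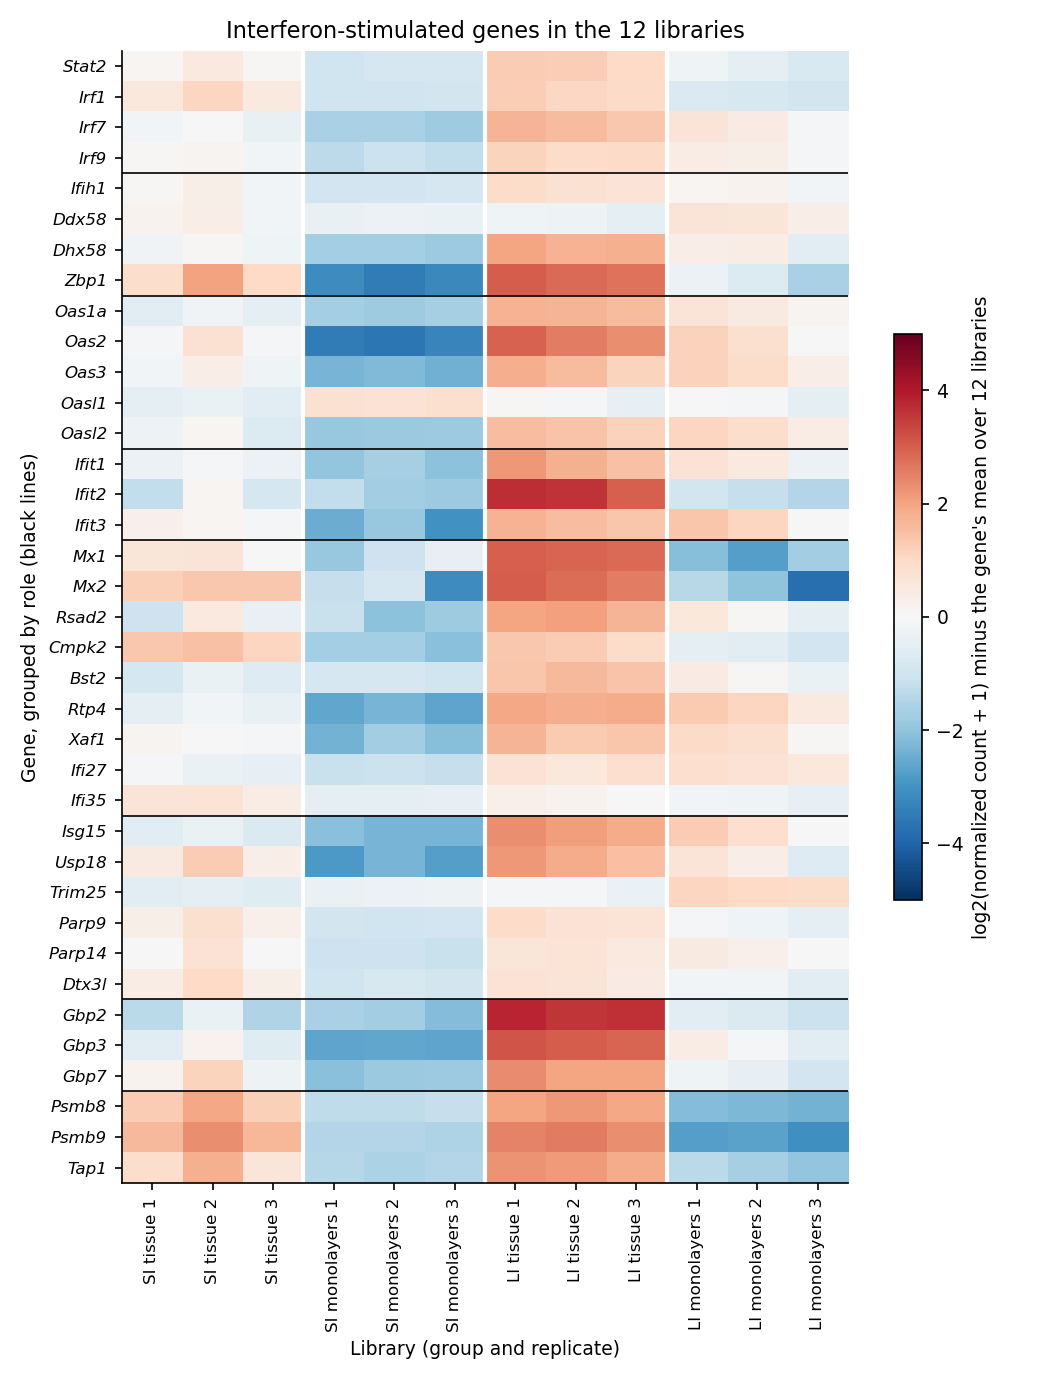
Level of each of the 37 genes (rows, grouped by role between black lines) in each of the 12 libraries (columns), as log2(normalized count + 1) minus the gene's mean over the libraries; red is above and blue below that mean. Most rows are reddest in the 3 LI tissue libraries and bluest in the 3 SI monolayer libraries. Oasl1 and Trim25 are exceptions to both. Others are Ddx58, Cmpk2 and Ifi35, with a higher mean outside LI tissue, and Mx1, Mx2, Psmb8, Psmb9 and Tap1, with their lowest mean in LI monolayers.

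The order of the groups was shared by most members. The highest mean was in LI tissue for 31 of 37 genes, in LI monolayers for Ddx58, Ifi27 and Trim25, in SI tissue for Cmpk2 and Ifi35, and in SI monolayers for Oasl1. SI monolayers had the lowest mean for 30 genes. LI monolayers were lowest for Mx1, Mx2, Psmb8, Psmb9 and Tap1, and SI tissue was lowest for Oasl1 and Trim25. Per kilobase of exon, the leading members of LI tissue were Isg15 (6972 normalized counts per kilobase), Oas1a (6735) and Irf7 (4673). In SI tissue they were Irf1 (2956 per kilobase), Psmb8 (2809) and Psmb9 (2530). The leading members of the monolayers were others: Oasl1 (2616 per kilobase) and Trim25 (1465) in SI, and Ifi27 (3619.6) and Trim25 (3563) in LI. Mx2 had the lowest level per kilobase in all 4 groups, with 78.5 in LI tissue and 2.36 in LI monolayers at the extremes.

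In SI tissue, LI tissue and LI monolayers, the members moved together between replicates. SI tissue replicate 2 was the highest library of its group for 33 of 37 members, LI tissue replicate 1 for 31 and LI monolayers replicate 1 for 33, while LI monolayers replicate 3 was the lowest of its group for 36. SI monolayers did not show this, with replicates 1, 2 and 3 highest for 9, 16 and 12 members. The same counts over all tested genes are not given here. The median coefficient of variation of a member was 19.7% in SI tissue and 21.9% in LI monolayers, against 11.0% and 6.88% over all tested genes. It was 6.23% in SI monolayers and 10.4% in LI tissue, near the 6.08% and 9.77% over all genes. In SI tissue replicates 1, 2 and 3, the T cell markers summed to 754, 753 and 537 CPM, those of B and plasma cells to 28.6, 81.4 and 41.9, and those of mature enterocytes to 26163, 23574 and 16977, while Ifng had 7.06, 22.9 and 7.82 normalized counts. In LI monolayers replicates 1, 2 and 3, the T cell markers summed to 2.68, 5.74 and 3.71 CPM and the enterocyte markers to 352, 438 and 407. Their part in this was not tested.

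The first comparison asks how the response genes stand after a day of culture. Most of the 37 genes fell. In SI monolayers against SI tissue, 29 of 37 members (78.4%) were called lower and 1 higher, where 16.4% of all tested genes were called lower and 9.71% higher. A call is an edgeR quasi-likelihood test with a Benjamini-Hochberg adjusted p under 0.05 over all tested genes and a change of at least 1 on the log2 scale. The median member fell 2.95-fold (median log2 fold change -1.56, against -0.05 over all genes tested), and the members ranged from -4.65 to 1.24. The 11 markers of mature enterocytes moved with the members here, with 7 of 11 called lower (median log2 fold change -2.58) and sums of 16977 to 26163 CPM in SI tissue and 7273 to 7567 in SI monolayers, and their part in the result was not tested. In LI monolayers against LI tissue, 22 of 37 (59.5%) were called lower and 1 higher, where 23.5% of all tested genes were called lower and 14.5% higher. Here the median member fell 2.56-fold (median log2 fold change -1.35, against -0.05 over all genes), within a range of -5.25 to 1.21. Leaving out LI monolayers replicate 1 moved this median to -1.65. In LI culture 2 of the 11 enterocyte markers were called lower and 0 higher, with a median log2 fold change of 0.63. Their sums were lower all the same, at 352 to 438 CPM, against 643 to 815 in the tissue. Their part in the LI result was not tested.

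Both regions called 19 of the same members lower, which is 65.5% of the 29 in SI and 86.4% of the 22 in LI, and these comparisons share no library. Over all tested genes, 11.2% were called lower in both, which is 68.6% of those called lower in SI and 47.8% of those in LI. The 19 were Stat2, Irf1, Irf7, Dhx58, Zbp1, Oas1a, Oas2, Ifit1, Mx1, Mx2, Rsad2, Cmpk2, Isg15, Usp18, Gbp3, Gbp7, Psmb8, Psmb9 and Tap1. Called lower in SI and not in LI were Irf9, Oas3, Oasl2, Ifit3, Rtp4, Xaf1, Ifi35, Parp9, Parp14 and Dtx3l. Called lower in LI and not in SI were Ifit2, Bst2 and Gbp2. Several of these lay close to the minimum change in the other region, among them Ifit2 in SI (log2 fold change -1.0) and Parp9 in LI (-0.99). The genes called higher were Oasl1 in SI and Trim25 in LI.

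The second comparison asks how the regions differ. SI tissue had less of most members than LI tissue: 21 of 37 (56.8%) were called lower and 0 higher, where 11.1% of all tested genes were called lower and 11.6% higher. The median member was 2.7-fold lower in SI tissue (median log2 fold change -1.43, against 0.06 over all genes), and the members ranged from -4.59 to 0.47. Without the minimum change of 1, edgeR called 2 members higher at an adjusted p under 0.05, Ddx58 (log2 fold change 0.47 ± 0.10 SE, adjusted p = 0.00120) and Ifi35 (0.46 ± 0.08, adjusted p = 0.000229). The same count of 2 had a positive change at an unadjusted p under 0.05, and DESeq2 with the minimum called 0 higher. In SI monolayers against LI monolayers, 22 of 37 (59.5%) were called lower and 3 higher, where 8.88% of all tested genes were called lower and 12.4% higher. The median log2 fold change was -1.28, against 0.02 over all genes, with a range of -4.22 to 1.36. Marker lists also differed between the regions. Of the 12 mesenchymal and endothelial markers, 6 were called lower in SI tissue than in LI tissue and 9 lower in SI monolayers than in LI monolayers. All 13 T cell markers were called higher in SI in both preparations, as were 11 of 11 enterocyte markers in tissue and 9 of 11 in monolayers. The part of these cell types in the result was not tested.

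Of the members lower in SI, 17 were called in both preparations, which is 81.0% of the 21 in tissue and 77.3% of the 22 in monolayers. Over all tested genes, 4.41% were called lower in both, which is 39.6% of those in tissue and 49.6% of those in monolayers. The 17 members include Irf7, all of Oas1a, Oas2, Oas3 and Oasl2, Isg15, Usp18, and the guanylate binding proteins Gbp2, Gbp3 and Gbp7. Ifit2, Mx1, Mx2 and Bst2 were called lower in tissue and not in monolayers. Irf9, Cmpk2, Ifi27, Trim25 and Parp14 were called lower in monolayers and not in tissue. The 3 members called higher in SI monolayers than in LI monolayers were Mx1, Psmb8 and Psmb9.

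**Figure D2:**
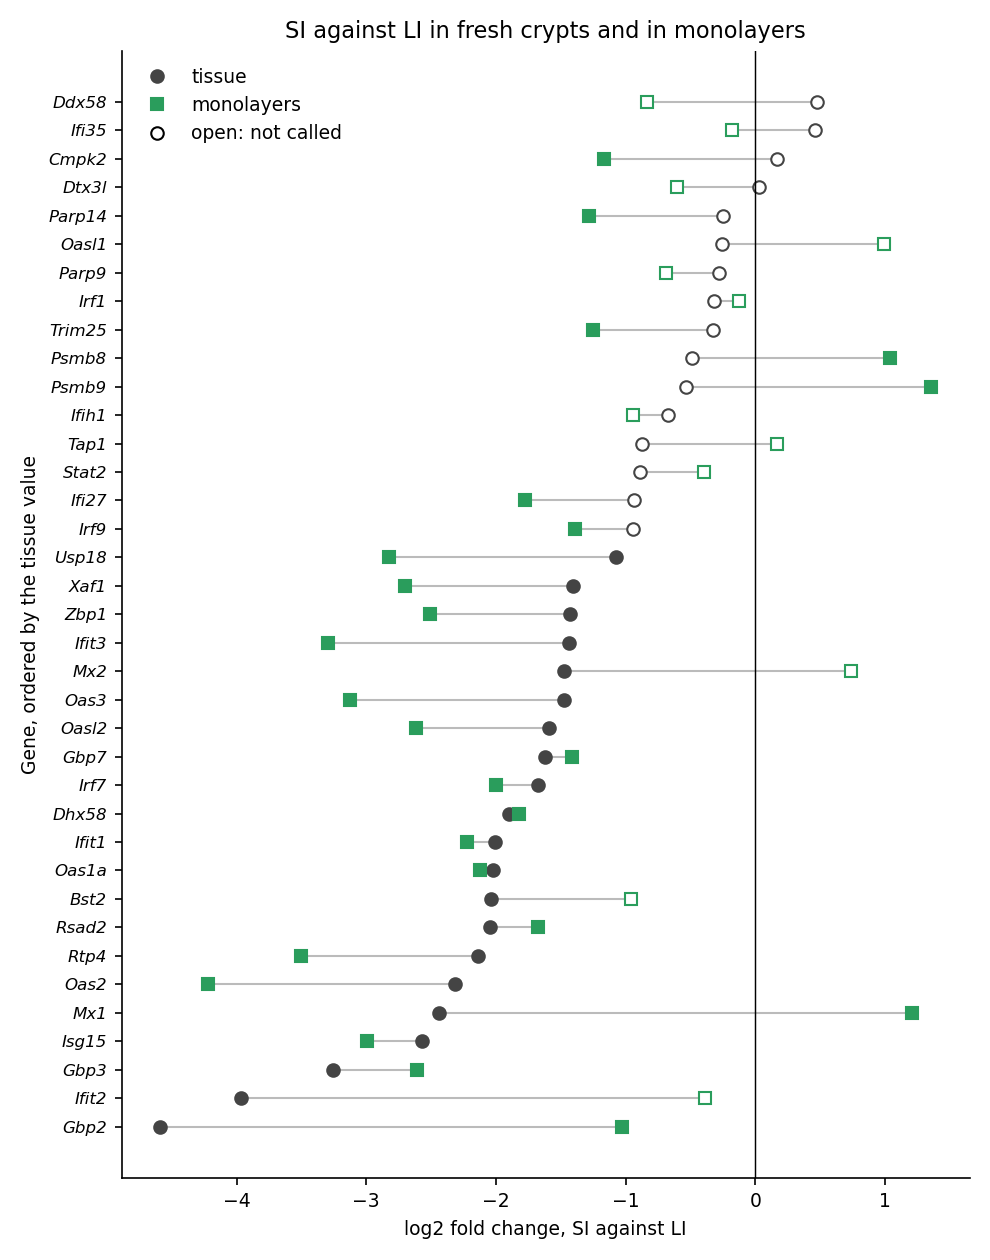
Log2 fold change of SI against LI for each of the 37 genes, in tissue (dark circles) and in monolayers (green squares); filled symbols passed the call and open symbols did not, and genes are ordered by the tissue value. Most symbols lie left of 0, and Mx1, Psmb8 and Psmb9 are the filled squares to the right of it.

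Whether the change in culture differed between the regions was tested as the interaction, the change in SI minus the change in LI. It was called above 0 for 8 members, Oasl1, Ifit2, Mx1, Mx2, Bst2, Gbp2, Psmb8 and Psmb9, where 11.4% of all tested genes were called above 0. It was called below 0 for 10 members, Ddx58, Oas2, Oas3, Oasl2, Ifit3, Cmpk2, Rtp4, Xaf1, Usp18 and Parp14, where 8.51% of all genes were. These are 21.6% and 27.0% of the members. The remaining 19 were not called. The count below 0 was 6 without LI monolayers replicate 1, the library with the highest values of its group for 33 members. The interaction was largest for Mx1 (3.65 ± 0.44 SE), Ifit2 (3.58 ± 0.51) and Gbp2 (3.56 ± 0.41), which fell further in LI, and it was most negative for Oas2 (-1.90 ± 0.52), which fell further in SI.

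**Figure D3:**
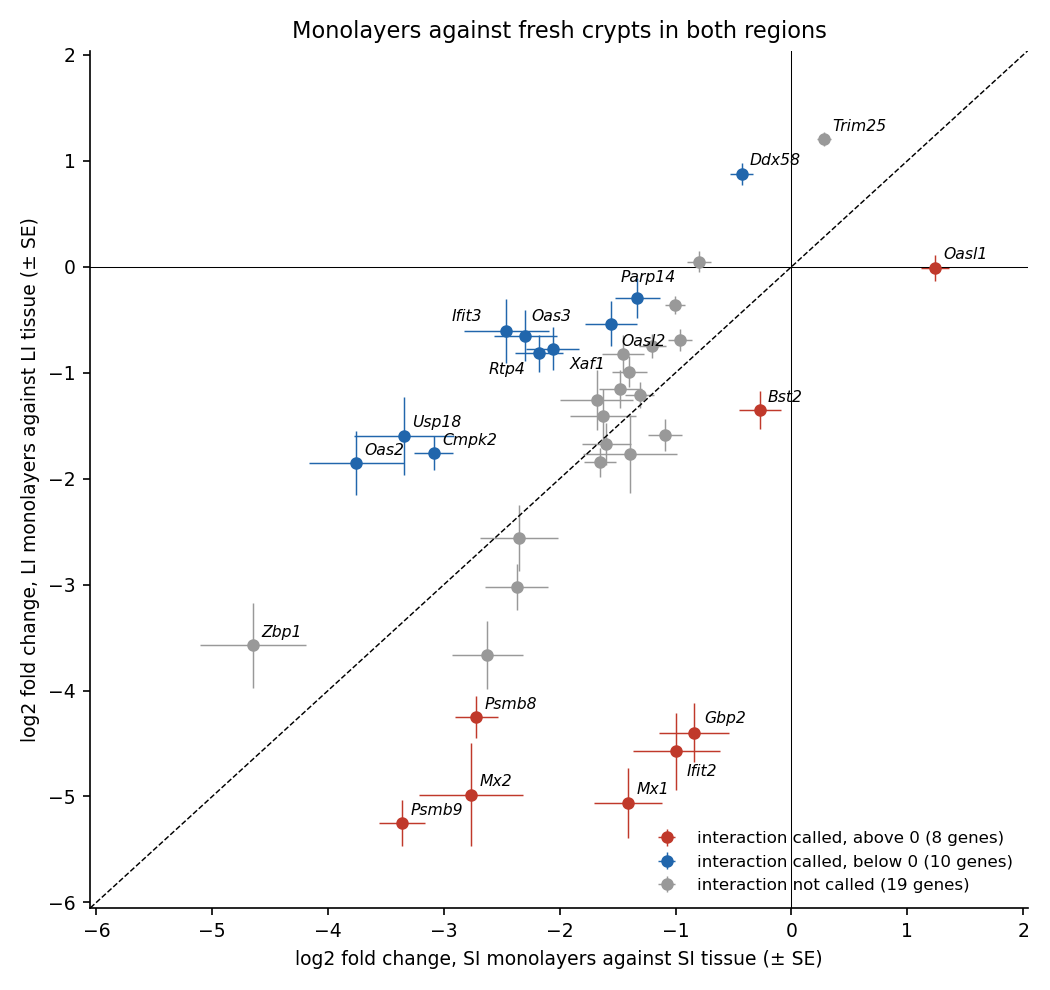
Log2 fold change of monolayers against tissue in SI (horizontal) and LI (vertical) for the 37 genes, each point with 1 SE either way; the dashed line marks equal changes. The 8 red genes lie below the line (interaction called above 0), the 10 blue genes above it (called below 0), and the 19 gray genes were not called for the interaction.

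The 4 transcription factors of the response fell in both cultures, Irf9 in LI by less than the minimum change. Stat2 and Irf9 encode subunits of ISGF3, Irf1 encodes an activator of antigen presentation genes, and Irf7 encodes the factor that amplifies type I interferon. All 4 were called lower in SI monolayers and 3 of 4 in LI monolayers. Irf9 was the exception in LI, with a log2 fold change of -0.75 ± 0.11 SE (adjusted p = 4.37e-05, edgeR) and no overlap of the libraries. None was called for the interaction. For the counts of this and the following role groups, 16.4% of all tested genes were called lower in SI culture and 23.5% in LI culture. The shares called higher were 9.71% and 14.5%. For SI against LI, 11.1% were called lower in tissue and 8.88% in monolayers. The call of Stat2 in SI was lost without SI tissue replicate 2 (log2 fold change -0.95).

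Irf1 (ENSMUSG00000018899.16, chr11:53770014-53778374, plus strand) had the highest CPM of the group. Its normalized counts were 10227, 14964 and 10063 in SI tissue and 3602, 3578 and 3737 in SI monolayers. In LI they were 16778, 14575 and 13828 in tissue and 4276, 4114 and 3773 in monolayers. Tissue and monolayer libraries did not overlap in either region. The fall was 3.15-fold in SI (adjusted p = 1.30e-06, edgeR) and 3.59-fold in LI (adjusted p = 3.33e-07). Between the regions Irf1 differed by less than the call asks, with a log2 fold change of -0.32 ± 0.13 SE in tissue and -0.13 ± 0.14 in monolayers. Irf7, chosen as an example after its values were seen, did separate the regions: its mean was 5377 ± 729 in SI tissue, 17645 ± 2009.9 in LI tissue, 1886 ± 106 in SI monolayers and 7682 ± 1932 in LI monolayers (SD, n = 3). Irf7 was 3.19-fold lower in SI tissue than in LI tissue (adjusted p = 3.39e-05, edgeR).

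Among the 4 sensors of foreign nucleic acid, the largest fall was that of Zbp1. Zbp1 encodes a receptor of left-handed nucleic acid that can start cell death (ENSMUSG00000027514.14, chr2:173206612-173218923, minus strand). It had 1912, 4186 and 2065 normalized counts in SI tissue and 117, 90.8 and 109 in SI monolayers. LI tissue had 8436, 7456 and 6743 and LI monolayers 849, 648 and 339.9. The groups did not overlap within a region, although SI tissue replicate 2 stood well above its group. Zbp1 fell 25.1-fold in SI (log2 fold change -4.65 ± 0.46 SE, adjusted p = 2.29e-05, edgeR) and 11.9-fold in LI (-3.57 ± 0.40, adjusted p = 4.18e-05). The interaction was not called (-1.08 ± 0.58, adjusted p = 0.172).

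The RNA sensors of the RIG-I family moved less. Ifih1 encodes the sensor MDA5 and had the highest CPM of the sensors (ENSMUSG00000026896.14, chr2:62595798-62646255, minus strand). Its normalized counts were 4793, 5712 and 4252 in SI tissue, 2397, 2373 and 2622 in SI monolayers, 8784, 7942 and 7411 in LI tissue and 4964, 5265 and 4261 in LI monolayers. It lay under the minimum change in all 4 pairwise comparisons, each with an edgeR adjusted p under 0.05, with log2 fold changes of -0.96 and -0.69 for culture in SI and LI and of -0.67 and -0.94 for SI against LI in tissue and monolayers. Without SI tissue replicate 3 its change in SI was called (-1.05). Ddx58 encodes RIG-I itself and had changes of opposite sign in the regions, with a log2 fold change of -0.43 ± 0.10 SE in SI and 0.88 ± 0.10 in LI, neither past the minimum change. The difference between these, -1.31 ± 0.15, was called (adjusted p = 4.12e-06, edgeR). Dhx58, which encodes the regulator LGP2, fell 3.02-fold in SI and 3.19-fold in LI.

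The OAS family, whose enzymes make the messenger that activates the RNA-degrading RNase L, held the member with the largest difference between the monolayers and the 1 member called higher in SI culture. Oas1a, Oas2, Oas3 and Oasl2 were called lower in SI monolayers than in SI tissue and lower in SI than in LI in both preparations. In LI monolayers only Oas1a and Oas2 of the 5 were called lower than in tissue. Oas2 (ENSMUSG00000032690.16, chr5:120730333-120749853, minus strand) had 219, 383 and 218 normalized counts in SI tissue and 19.2, 17.8 and 21.9 in SI monolayers. It had 1748, 1331 and 1133 in LI tissue and 503, 398 and 224 in LI monolayers. SI monolayers thus lay apart from every other group. The fall in SI was 13.5-fold (-3.76 ± 0.41 SE on the log2 scale, adjusted p = 1.20e-05, edgeR), and that in LI 3.61-fold (adjusted p = 0.000205). SI monolayers had 18.7-fold less Oas2 than LI monolayers (-4.22 ± 0.40 SE).

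Oasl1 and Oasl2 encode OAS-like proteins, and they differed in direction. Oasl1, whose product is known to hold back translation of Irf7 RNA (ENSMUSG00000041827.15, chr5:114923240-114937915, plus strand), had 2912, 3185 and 2784 normalized counts in SI tissue and 6842, 6609.6 and 7013 in SI monolayers. All SI monolayer libraries were higher than every library of the other groups. It rose 2.36-fold in SI (1.24 ± 0.12 SE on the log2 scale, adjusted p = 2.96e-06, edgeR). LI tissue had 4132, 3842 and 2962 and LI monolayers 3908, 3694 and 2914, which overlapped (log2 fold change -0.01 ± 0.12 SE). The interaction was called (1.25 ± 0.17, adjusted p = 9.91e-05, edgeR). Between the monolayers Oasl1 was just under the minimum change (0.99 ± 0.12), and it was called without SI monolayers replicate 1 or 2 or LI monolayers replicate 1 or 2 (1.02 to 1.11). Oasl2, with the highest CPM of the family (ENSMUSG00000029561.17, chr5:114896936-114912234, plus strand), had 3877, 4952 and 2947 normalized counts in SI tissue, 1262, 1309 and 1321 in SI monolayers, 13499, 12649 and 10329 in LI tissue and 9744, 8564 and 6028 in LI monolayers. It fell 2.95-fold in SI (adjusted p = 0.000234, edgeR). Its interaction of -1.03 ± 0.31 lay at the edge of the call and was lost without SI tissue replicate 2, LI tissue replicate 3, any 1 SI monolayers library or LI monolayers replicate 1 or 2 (-0.93 to -0.76). Oas1a fell 2.48-fold in SI and 2.31-fold in LI, and Oas3 fell 4.92-fold in SI. Oas1a has near-identical copies in the genome, and reads shared with them may have been left out or split.

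The IFIT genes encode proteins that bind foreign RNA and block its translation, and the 3 neighbours on chromosome 19 behaved differently from one another. All 3 were called lower in SI tissue than in LI tissue. Ifit1 (ENSMUSG00000034459.8, chr19:34640871-34650009, plus strand) fell in both cultures. Its normalized counts were 795, 923 and 802 in SI tissue and 251, 307 and 237 in SI monolayers. In LI they were 4390.4, 3363 and 2696 in tissue and 1635, 1369 and 789 in monolayers. No library of one preparation overlapped the other within a region. The falls of 3.09-fold in SI (adjusted p = 0.000778, edgeR) and 2.66-fold in LI (adjusted p = 0.000891) gave an interaction that was not called (-0.22 ± 0.38 SE, adjusted p = 0.689).

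Ifit2 (ENSMUSG00000045932.12, chr19:34550694-34576419, plus strand) was high in LI tissue alone. LI tissue had 3813, 3659.5 and 2352 normalized counts and LI monolayers 156, 134 and 108. SI tissue had 125, 321 and 163 and SI monolayers 127, 89.0 and 83.9. The SI preparations overlapped, and all 9 libraries outside LI tissue were far below it. Ifit2 fell 23.8-fold in LI (-4.58 ± 0.36 SE on the log2 scale, adjusted p = 1.69e-06, edgeR), and was 15.6-fold lower in SI tissue than in LI tissue (adjusted p = 6.96e-06). Its change in SI, -1.0 ± 0.38, fell just short of the minimum, and it was called without SI tissue replicate 1 (-1.24) and with DESeq2 (-1.03).

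Ifit3 (ENSMUSG00000074896.3, chr19:34583531-34588731, plus strand) changed in the other region. SI tissue had 299.9, 266 and 235 normalized counts and SI monolayers 44.2, 66.8 and 30.1. LI tissue had 841, 731 and 658 and LI monolayers 648, 521 and 247. It fell 5.51-fold in SI (adjusted p = 0.000127, edgeR), while the LI change of -0.61 ± 0.31 SE was not called (adjusted p = 0.101). SI monolayers had 9.81-fold less than LI monolayers (adjusted p = 1.49e-05, edgeR). The interaction was called below 0 for Ifit3 (-1.86 ± 0.48) and above 0 for Ifit2 (3.58 ± 0.51). Ifit3 has a close copy, Ifit3b, so its counts are uncertain to the extent that reads were shared.

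The Mx genes encode dynamin-like proteins that trap viruses, and both were highest in LI tissue and low in the monolayers of both regions. In C57BL/6 mice Mx1 carries a known deletion of coding exons, and the annotation lists Mx2 as a polymorphic pseudogene, so these values describe RNA and not a working protein. Mx1 (ENSMUSG00000000386.16, chr16:97447035-97462907, minus strand) had 680.4, 631 and 599.9 normalized counts in LI tissue and 18.3, 11.5 and 24.7 in LI monolayers. SI tissue had 127, 130.3 and 86.0 and SI monolayers 22.1, 40.1 and 62.9. Mx1 fell 33.3-fold in LI (-5.06 ± 0.33 SE on the log2 scale, adjusted p = 1.29e-09, edgeR) and 2.66-fold in SI (-1.41 ± 0.30, adjusted p = 0.000703). It was 5.42-fold lower in SI tissue than in LI tissue, and 2.31-fold higher in SI monolayers than in LI monolayers (adjusted p = 0.00981, edgeR). The monolayer libraries of the regions overlapped, and this last call was lost without SI monolayers replicate 3 (log2 fold change 0.82, adjusted p = 0.0636, edgeR).

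Mx2 (ENSMUSG00000023341.15, chr16:97535308-97560900, plus strand) had 329, 282 and 240.1 normalized counts in LI tissue and 14.4, 9.18 and 1.98 in LI monolayers. SI tissue had 91.7, 102 and 103 and SI monolayers 17.3, 21.4 and 3.65. LI monolayers replicate 3 held 2 raw counts, under the floor of 3. Tissue was above monolayers in every library of both regions. The log2 fold change was -4.98 ± 0.49 SE in LI (adjusted p = 2.44e-07, edgeR) and -2.77 ± 0.45 in SI (adjusted p = 8.05e-05). Without LI monolayers replicate 1 the LI value was -5.72, and the interaction of 2.22 ± 0.68 became 2.99. The interaction was lost without SI monolayers replicate 2 (1.89, adjusted p = 0.0593, edgeR). Between the monolayers Mx2 was not called (0.74 ± 0.57), except without SI monolayers replicate 3 (1.23, adjusted p = 0.0472, edgeR).

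Rtp4 and Ifi27 were not called between LI monolayers and LI tissue. Rtp4 encodes a zinc-finger protein that limits flavivirus replication (ENSMUSG00000033355.6, chr16:23520291-23614222, plus strand). It had 859, 1072 and 892 normalized counts in SI tissue, 190.1, 231 and 186 in SI monolayers, 4484, 4087 and 4215 in LI tissue and 2907, 2474 and 1636 in LI monolayers. The 4 groups did not overlap. Rtp4 fell 4.53-fold in SI (adjusted p = 4.17e-06, edgeR), and its LI change of -0.82 ± 0.18 SE was under the minimum except without LI monolayers replicate 1 (-1.08). The interaction of -1.36 ± 0.27 was called. Rtp4 shares 296 exonic bases with an overlapping transcript on its strand. Ifi27 encodes a small mitochondrial protein and had the highest CPM among the other effectors (ENSMUSG00000064215.13, chr12:103434211-103440239, plus strand). Its normalized counts were 5406, 4703 and 5793 in LI tissue and 5838, 5443 and 4649 in LI monolayers, which overlapped. SI tissue had 3057, 2599 and 2448 and SI monolayers 1500.2, 1568 and 1487. SI monolayers had 3.43-fold less than LI monolayers (-1.78 ± 0.10 SE on the log2 scale, adjusted p = 3.75e-09, edgeR).

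SI tissue against LI tissue was just under the minimum for Ifi27 (-0.93 ± 0.10), and it was called without SI tissue replicate 1, LI tissue replicate 2 or any 1 monolayer library (-1.03 to -1.01).

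Of 9 antiviral effectors outside these families, among them both Mx genes, Rtp4 and Ifi27, 7 were called lower in SI monolayers and 5 in LI monolayers. Of all tested genes, 16.4% were called lower in SI and 23.5% in LI. None of the 9 was called higher in either, where 9.71% and 14.5% of all genes were, which is not far apart in so small a group. Examples are Cmpk2, a mitochondrial nucleotide kinase beside Rsad2, which fell 8.50-fold in SI and 3.38-fold in LI, and Rsad2, which encodes viperin and fell 2.63-fold and 3.40-fold. The Rsad2 call in SI was lost without SI tissue replicate 2 (log2 fold change -0.92) or SI monolayers replicate 2 (-1.17, adjusted p = 0.0545, edgeR). Bst2, which encodes tetherin, fell 2.56-fold in LI, with a log2 fold change of -0.27 ± 0.18 SE in SI. Its interaction (1.08 ± 0.25) was lost without SI tissue replicate 1 (0.96). Xaf1, a gene linked to cell death, fell 4.18-fold in SI, with -0.77 ± 0.20 SE in LI, or -1.03 without LI monolayers replicate 1. Its interaction (-1.29 ± 0.31) was then just under the minimum (-1.0). Ifi35 lay at the edge of the call in SI (-1.01 ± 0.09) and lost it without SI tissue replicate 1 or 2 or any 1 monolayer library (-0.99 to -0.95).

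**Figure D4:**
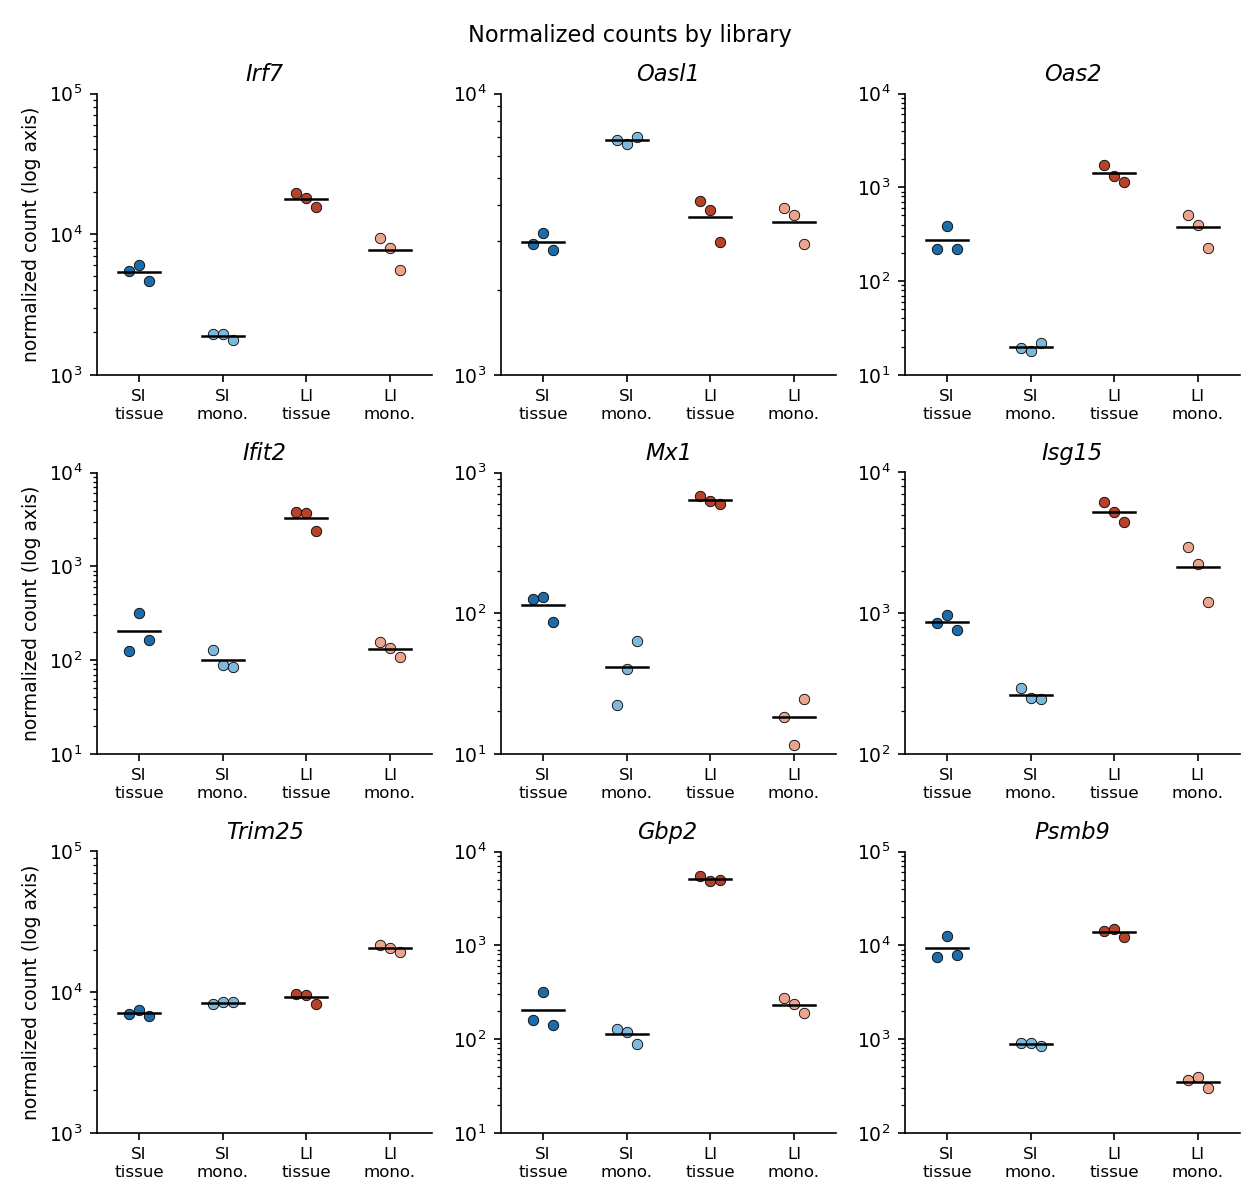
Normalized counts of 9 genes in the 12 libraries on log axes (points, with a bar at each group's mean; mono., monolayers; 3 libraries a group). Ifit2, Gbp2 and Mx1 stand out in LI tissue, Oas2 is lowest in SI monolayers, Psmb9 falls in both cultures, Oasl1 is highest in SI monolayers and Trim25 in LI monolayers.

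In the ISG15 system, Isg15 encodes a ubiquitin-like protein, Usp18 the protease that removes it and damps the type I receptor, and Trim25 a ligase that ubiquitinates RIG-I. Isg15, described as the gene of the first promoter above (ENSMUSG00000035692.7, chr4:156199424-156200818, minus strand), had 856, 977 and 753 normalized counts in SI tissue and 293, 247 and 247 in SI monolayers. LI tissue had 6120.4, 5228 and 4464 and LI monolayers 2952, 2234 and 1208. The 4 groups did not overlap. It fell in both cultures, 3.21-fold in SI and 2.39-fold in LI, and was lower in SI than in LI by 5.94-fold in tissue and 7.97-fold in monolayers. Usp18 fell 10.2-fold in SI and 3.02-fold in LI. Its SI to LI difference in tissue (-1.07 ± 0.36 SE, adjusted p = 0.0309, edgeR) was lost without SI tissue replicate 1 or 3 or LI tissue replicate 1 or 2 (-1.08 to -0.90). Its interaction (-1.75 ± 0.56, adjusted p = 0.0290, edgeR) was lost in 8 of the 12 fits without 1 library, those without SI tissue replicate 2, LI tissue replicate 2 or 3, any 1 SI monolayers library or LI monolayers replicate 1 or 2 (-1.82 to -1.34).

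Trim25 (ENSMUSG00000000275.16, chr11:88999376-89020293, plus strand) was the one member called higher in LI monolayers than in LI tissue. LI tissue had 9693, 9583 and 8245 normalized counts and LI monolayers 21662, 20623 and 19214. SI tissue had 7042, 7508 and 6769.8 and SI monolayers 8271, 8461 and 8556. All LI monolayer libraries were higher than every library of the other groups. Trim25 rose 2.31-fold in LI (1.21 ± 0.06 SE on the log2 scale, adjusted p = 6.50e-11, edgeR), against 0.28 ± 0.06 in SI, and the interaction of -0.93 ± 0.09 was under the minimum change. Parp9 and Dtx3l encode partners of 1 ligase complex and Parp14 an ADP-ribosyltransferase. All 3 were called lower in SI monolayers, by 2.64-fold, 2.73-fold and 2.52-fold, and were not called in LI (log2 fold changes -0.99, -0.82 and -0.30). The interaction of Parp14 (-1.03 ± 0.27) was lost without SI tissue replicate 2, LI tissue replicate 3, any 1 SI monolayers library or LI monolayers replicate 1 or 2 (-0.99 to -0.76). Parp9 in LI was called in 7 of the 12 fits without 1 library, with a most negative value of -1.14 without LI monolayers replicate 1. Parp9 and Dtx3l share 458 exonic bases on opposite strands, and since strand-aware counting is not given in the sources used here, reads there cannot be told apart.

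The guanylate binding proteins attack the membranes around intracellular microbes, and Gbp2, Gbp3 and Gbp7 were highest in LI tissue. All 3 were called lower in LI monolayers than in LI tissue and lower in SI than in LI in both preparations. Gbp2 (ENSMUSG00000028270.12, chr3:142620602-142638008, plus strand) had 5523, 4787 and 4970.5 normalized counts in LI tissue and 271, 239 and 189.7 in LI monolayers. SI tissue had 158, 318 and 142 and SI monolayers 128, 120.2 and 88.5. LI tissue lay more than an order of magnitude above every other library. Gbp2 was 24.0-fold lower in SI tissue than in LI tissue (-4.59 ± 0.28 SE on the log2 scale, adjusted p = 3.76e-07, edgeR) and fell 21.1-fold in LI culture (adjusted p = 2.14e-07). Its change in SI culture was -0.84 ± 0.30, under the minimum except without SI tissue replicate 3 (-1.05). The SI to LI difference in monolayers (-1.03 ± 0.30) was lost without SI monolayers replicate 3 (-0.85) and without LI monolayers replicate 1 (-0.87) or 2 (-0.99).

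Gbp3 (ENSMUSG00000028268.14, chr3:142560026-142573209, plus strand) had 1952, 1831 and 1703 normalized counts in LI tissue and 289, 210.0 and 153 in LI monolayers. SI tissue had 155, 254 and 148 and SI monolayers 34.6, 35.6 and 34.6. SI monolayers were the lowest group and did not overlap the others. Gbp3 fell 8.12-fold in LI (adjusted p = 2.54e-08, edgeR) and 5.17-fold in SI (adjusted p = 4.21e-06). In tissue it was 9.56-fold lower in SI than in LI. The interaction (0.65 ± 0.35) was called only without LI monolayers replicate 1 (1.03). Gbp7 fell 5.11-fold in SI and 5.89-fold in LI. These genes belong to a family of close copies, and Gbp7 shares 637 exonic bases with an annotated processed pseudogene.

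The antigen processing genes had the lowest median of the 8 role groups in LI (log2 fold change -4.25). Psmb8 and Psmb9 encode catalytic subunits of the immunoproteasome, and Tap1 encodes a subunit of the transporter that carries peptides to MHC class I. All 3 were called lower in both cultures. All 3 were also lower in SI tissue than in LI tissue, but by less than the minimum change (log2 fold changes -0.87 to -0.49). The edgeR adjusted p there was 0.0290 to 0.0352. Tap1 was called in this comparison without SI tissue replicate 2 (-1.29). Psmb9 (ENSMUSG00000096727.3, chr17:34181987-34187764, minus strand) had 7552, 12439 and 7788 normalized counts in SI tissue and 897, 901 and 844 in SI monolayers. LI tissue had 14037, 15030 and 12358 and LI monolayers 366, 390.2 and 298. The preparations were far apart in both regions. Psmb9 fell 38.1-fold in LI (-5.25 ± 0.22 SE on the log2 scale, adjusted p = 9.77e-09, edgeR) and 10.3-fold in SI (-3.36 ± 0.20, adjusted p = 2.49e-07). SI monolayers kept 2.56-fold more Psmb9 than LI monolayers (adjusted p = 0.000324, edgeR), and the interaction was called (1.89 ± 0.27).

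Psmb8 (ENSMUSG00000024338.15, chr17:34197721-34201454, plus strand) followed its partner. Its normalized counts were 7998, 12813 and 7677 in SI tissue and 1367, 1364 and 1483 in SI monolayers. LI tissue had 13235, 15030 and 12858 and LI monolayers 739, 701 and 648. It fell 6.59-fold in SI and 19.1-fold in LI, with an interaction of 1.53 ± 0.25 SE (adjusted p = 0.000732, edgeR). Tap1, which starts beside Psmb9 on the other strand (ENSMUSG00000037321.17, chr17:34187553-34197225, plus strand), had the highest CPM of the 3. SI tissue had 7916, 14798 and 6665 normalized counts and SI monolayers 1635, 1443 and 1557. LI tissue had 20421, 18869 and 15957 and LI monolayers 1714, 1390 and 1101. SI tissue replicate 2 was above both of its partners, and the monolayers of the regions overlapped. Tap1 fell 6.18-fold in SI (adjusted p = 6.97e-05, edgeR) and 12.7-fold in LI (adjusted p = 6.44e-06), and its interaction of 1.04 ± 0.41 was not called (adjusted p = 0.0707, edgeR), except without SI tissue replicate 2 (1.46), without LI monolayers replicate 1 (1.33) and with DESeq2 (1.03). Psmb9 and Tap1 share 212 exonic bases.

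The ligands of the pathway were barely detected. Of 21 interferon genes listed, 17 had 0 counts in all 12 libraries, Ifnb1 and every listed Ifna gene among them. At the floor of 3 counts this allows at most 0.0508 CPM in any library, or more if mates were counted separately. Ifnk had 4 counts, all in SI tissue, and Ifnz and Ifnl3 had 12 and 2 counts, all in SI monolayers, with no more than 8 in 1 library. Ifng was the one that passed the filter on low counts, with 36 counts over the 3 SI tissue libraries, 74 over the 3 LI tissue libraries and 0 in the 6 monolayer libraries. In normalized counts it had 7.06, 22.9 and 7.82 in SI tissue and 34.8, 21.1 and 12.5 in LI tissue. With the floor of 3 counts per library, Ifng was at least 4.56-fold lower in SI monolayers than in SI tissue and at least 7.35-fold lower in LI monolayers than in LI tissue. These bounds take counts as independent, and they would be lower if mates were counted separately. Without SI tissue replicate 2 the SI bound was 2.69-fold, and without 1 LI tissue library the LI bound lay between 5.41-fold and 9.01-fold. The lymphocyte markers were lower in the same monolayers, and their part in this was not tested.

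The 6 receptor genes differed in direction. Ifnar1 and Ifnar2 encode the type I receptor, Ifngr1 and Ifngr2 the type II receptor, and Ifnlr1 and Il10rb the type III receptor. In LI monolayers Ifnar2 rose 4.16-fold (2.06 ± 0.13 SE on the log2 scale, adjusted p = 4.98e-10, edgeR) and Ifnlr1 rose 3.47-fold (1.79 ± 0.09, adjusted p = 3.54e-11). Ifnlr1 had 959, 767 and 891 normalized counts in LI tissue and 3070, 2927 and 2788 in LI monolayers, without overlap. In SI monolayers Ifngr1 rose 2.37-fold (1.24 ± 0.05 SE, adjusted p = 4.46e-12, edgeR), and Ifnlr1 changed by 0.75 ± 0.09, under the minimum. Ifngr2 fell in both, by 2.09-fold in SI and 2.10-fold in LI. Ifnar1 (-0.07 in SI and 0.57 in LI on the log2 scale) and Il10rb (-0.66 and 0.02) were not called. Ifnar2 was 3.15-fold higher in SI tissue than in LI tissue, and the interaction was called below 0 for Ifnar2 (-2.25 ± 0.18) and Ifnlr1 (-1.04 ± 0.13).

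Of the signal transducers, 6 of 20 were called lower in SI monolayers and 6 in LI monolayers, and 2 were called higher in LI monolayers, where 16.4% of all tested genes were called lower in SI, and 23.5% lower and 14.5% higher in LI. The same shares apply to the negative regulators. Irf8, a factor known from macrophages and dendritic cells, had mean normalized counts of 15557 in SI tissue and 13873 in LI tissue. Both cultures were far lower, with 3564, 3518 and 3649 in SI monolayers and 695, 686 and 632 in LI monolayers. Between the monolayers it was 5.44-fold higher in SI. Which cells held this RNA was not tested. Tlr9, a sensor of DNA in endosomes, had 70 counts over the SI tissue libraries and 0 in SI monolayers. Of 6 negative regulators, 3 were called lower in SI monolayers and 2 in LI monolayers, and 1 was called higher in LI monolayers. Socs1, which blocks the receptor kinases, had an interaction of -2.23 ± 0.27 SE, with 679.8, 1226 and 806 normalized counts in SI tissue and 133, 184 and 177 in SI monolayers against 623, 478 and 541 in LI tissue and 451, 495 and 455 in LI monolayers.

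A wider list of 81 further interferon-stimulated genes, of which 77 were tested, was counted in the same way. In SI monolayers 44 of 77 were called lower and 2 higher (16.4% and 9.71% of all tested genes), and in LI monolayers 52 were called lower and 3 higher (23.5% and 14.5%). In SI tissue against LI tissue 37 were called lower and 4 higher (11.1% and 11.6% of all genes). In SI monolayers against LI monolayers 25 were called lower and 10 higher (8.88% and 12.4%), so the higher share is near that of all genes. The interaction was called above 0 for 14 and below 0 for 6 (11.4% and 8.51% of all genes), the latter share again near that of all genes. The median log2 fold changes of the list were -1.50 and -1.56 for culture in SI and LI, and -0.98 and -0.64 for SI against LI in tissue and monolayers.

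The largest falls of the wider list in LI were those of Iigp1, Tgtp1 and Tgtp2, which encode immunity-related GTPases. Iigp1 had 7928, 5864 and 5499 normalized counts in LI tissue and 11.6, 11.5 and 7.91 in LI monolayers, a log2 fold change of -9.23 ± 0.85 SE (adjusted p = 1.08e-05, edgeR). SI tissue had 22.3, 234 and 33.2, with replicate 2 far above its partners, and SI monolayers 26.9, 14.2 and 7.29. Iigp1 was 64.2-fold lower in SI tissue than in LI tissue, and 219-fold lower without SI tissue replicate 2. The near-identical pair Tgtp1 and Tgtp2, whose reads may be shared, had log2 fold changes of -8.64 ± 0.79 SE and -7.71 ± 0.71 in LI culture, both called lower, and Tgtp2 had -8.82 without LI monolayers replicate 2. Gbp4 was called lower in SI monolayers (-4.90 ± 0.43 SE), with 258, 264 and 134 normalized counts in SI tissue and 1.92, 12.5 and 6.38 in SI monolayers. Without SI monolayers replicate 2 the Gbp4 change was -5.58. Sp100, a gene of nuclear bodies, had an interaction of -2.93 ± 0.35, with 61.4, 80.1 and 109 normalized counts in SI monolayers and 1069.5, 917 and 574 in LI monolayers.

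Other genes of the wider list moved in various directions. In SI monolayers Isg20, an RNA exonuclease, rose 3.73-fold (adjusted p = 4.54e-11, edgeR) and the T cell attractant Cxcl10 rose 3.56-fold (adjusted p = 0.000201), from 25.9, 48.0 and 15.6 to 110.4, 99.7 and 101 normalized counts. In LI monolayers Ifi209 and Ifi211, of a family of DNA sensors, rose by 2.0 ± 0.27 and 1.74 ± 0.54 SE on the log2 scale, and Ifi211 had 2.61 without LI tissue replicate 1 and lost the call without LI monolayers replicate 1 (1.45). The related Ifi204 was at 227, 210.0 and 159 normalized counts in LI monolayers and 5.76, 3.56 and 0 in SI monolayers. Trim30a and Ifi44 were 17.0-fold and 17.3-fold lower in SI monolayers than in LI monolayers. Cxcl9, a second attractant of T cells, was 13.8-fold lower in SI tissue than in LI tissue, and 5.71-fold higher in SI monolayers than in LI monolayers. The latter rests on 18, 8 and 38 counts in SI monolayers and 6, 2 and 2 in LI monolayers, and was 3.60-fold without SI monolayers replicate 3 and 9.16-fold without LI monolayers replicate 1. Slfn2 was also higher in SI monolayers, by 4.37-fold. Ifitm1 had 35.5, 33.8 and 32.8 normalized counts in SI monolayers and 1.93, 0 and 0 in LI monolayers, and Ms4a4c had 37 counts over the SI tissue libraries and 0 in SI monolayers.

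Higher in SI tissue than in LI tissue were Ifit1bl2 (6.73-fold), Cxcl11 (2.80-fold), Ifi203 (2.64-fold) and Lgals9 (2.50-fold). Lgals9 was named after its value was seen, to complete the 4. The call of Ifi203 was lost without SI tissue replicate 1 or 2 or LI tissue replicate 1 or 3 (log2 fold changes 1.27 to 1.39). Ifit1bl1, which lies in the same gene cluster as Ifit1bl2, was 13.7-fold lower in SI tissue than in LI tissue, with 1962, 3173 and 1963 against 36018, 32228 and 31858 normalized counts. Both are close copies of Ifit1, so the split of reads among them is uncertain.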

How the data were processed

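RNA was sequenced as paired-end reads on an Illumina HiSeq. The authors aligned reads to GRCm38 with STAR 2.7.9a and counted them per gene of GENCODE vM25 with featureCounts 2.0.2, and they deposited raw counts and the normalized counts of DESeq2 (version given as 3.13), a signal divided by size factors of 0.850 to 1.12. Handling of strand and of multi-mapping reads is not given in the sources used here. Gene IDs were named from GENCODE M21 and a table of gene names (55227 of 55487 rows).

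Counts were tested with edgeR 4.0.16 (R 4.3.3): filterByExpr, TMM scaling, and 1 robust quasi-likelihood model of the 4 groups, a procedure tested on simulated data. SE is the log2 fold change divided by the root of F. Values per library are the normalized counts, and the level scale is log2(value + 1). The authors' methods give no test between these groups. Replicate pairs differed by 2.14 to 7.86 times counting noise, so none was a duplicate. Of the counts from 1 to 20, 73.4% to 77.4% were even, so mates may have been counted separately, and a fit on halved counts was an alternative. Members and lists were chosen with earlier results of these data known. Genes given by library were the 3 called members with the largest change in each direction per pairwise comparison, the 3 largest called interactions and the member with the highest CPM of each of 8 roles (19 members in all). For the pathway lists they were all receptors, tested interferons and up to 4 called genes per direction, and 1 further gene named by the rule is not reported here. Irf7, Isg15 and other examples were chosen after their values were seen. Alternatives were upper quartile and median-of-ratios scaling, no filter, at least 10 counts in every library, a replicate block, halved counts, DESeq2 1.42.0, only the groups compared, no minimum change, a pseudocount of 10 and leaving out each library.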

Additional observations from a re-analysis of the deposited data

Results flagged for a closer look

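The change in culture differed between SI and LI for 8 members with an interaction above 0 and 10 members with one below 0, as tested with edgeR over all genes, of which 11.4% were called above and 8.51% below 0. The count below 0 was 6 without LI monolayers replicate 1. On the log2 scale, and with the change in SI minus that in LI, the interaction was 3.65 for Mx1, 3.58 for Ifit2 and 3.56 for Gbp2, each lower in LI monolayers than in LI tissue by a wider margin than in SI. It was 2.22 for Mx2, 1.89 for Psmb9 and 1.53 for Psmb8, which fell in both regions and further in LI. It was 1.25 for Oasl1, which rose in SI. It was -1.90 for Oas2, which fell in both regions and further in SI. For Ifit3 (-1.86), Rtp4 (-1.36) and Oasl2 (-1.03), the fall was called in SI and not in LI.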

How the results depend on the processing

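Of 117 calls of members over the 5 comparisons, 12 were lost in at least 1 of 9 alternatives or 12 fits without 1 library. The other 105 were not lost, and 0 were reversed. Not every alternative could lose every call. Dropping the minimum change can only add calls, and the fit of only the groups compared held no interaction. With at least 10 counts in every library, Mx2 was not tested, so its calls were not checked there. Without a minimum change, 2 members were higher in SI monolayers than in SI tissue, 2 in LI monolayers than in LI tissue and 2 in SI tissue than in LI tissue. Leaving out a library moved the median log2 fold change in LI culture between -1.65 and -1.22 (-1.35 with all), the count of interactions below 0 between 6 and 10, and the median interaction between -0.42 and -0.0371 (-0.32 with all). The first value of each range came without LI monolayers replicate 1, except for the median interaction, where -0.0371 did. DESeq2 lost 0 calls and gained 4. Upper quartile scaling shifted the median of all genes in LI culture by -0.12 and lost the interactions of Oasl2 (-0.94) and Parp14 (-0.95). Without a filter on low counts, Ifi35 in SI (-1.0) and the interactions of Oasl2 (-0.99) and Usp18 (-1.72) were lost, and with only the groups compared Ifi35 in SI (-0.98). The cause was not tested. Replicate numbers showed no pairing of the samples, with 18 correlations of same-numbered libraries from -0.05 to 0.06. These correlations cannot exclude that SI and LI libraries share mice, and the tests treated all libraries as independent. A replicate block lost 2 calls, Ifi35 in SI (-1.0) and the Oasl2 interaction (-0.98), and gained 1, Oasl1 between the monolayers (1.0). Depth gave a floor of 0.0394 to 0.0508 CPM, which limits the interferon genes and, with 2 counts in LI monolayers replicate 3, Mx2.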
